A study of Mus musculus with 18 samples.

Results

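Neutrophil elastase (Elane), myeloperoxidase (Mpo), proteinase 3 (Prtn3), cathepsin G (Ctsg), Ms4a3, Cebpe and Gfi1 were followed in mouse bone marrow-derived macrophages exposed to plasma of mice on a Western diet. They are the early granule proteins of the neutrophil lineage, a membrane protein of its progenitors and a pair of transcription factors that act in it. Members were found by their gene symbol in the platform annotation of the array table, and all 7 had exactly 1 probe set among the 24705 rows with 1 gene symbol. The Entrez gene identifiers behind these probe sets were 50701 for Elane, 17523 for Mpo, 19152 for Prtn3, 13035 for Ctsg, 170813 for Ms4a3, 110794 for Cebpe and 14581 for Gfi1.

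The macrophages came from flushed mouse femurs and were grown with M-CSF (30 ng/mL), which drives marrow cells to macrophages. On day 4, serum was exchanged for 10% plasma, and RNA was taken 48 hours later, on day 6, so that all 18 arrays share M-CSF, plasma of diet-fed mice and the time in culture. All plasma donors were C57BL/6J mice after 8 weeks of diet: wild-type mice (WT, 4 arrays), mice with ApoE-KO (ApoE, 5 arrays), mice with ApoE-Stab1-KO (AS1, 3 arrays) and mice with ApoE-Stab2-KO (AS2, 6 arrays). ApoE encodes apolipoprotein E, a lipid carrier of plasma, and Stab1 and Stab2 encode the scavenger receptors stabilin-1 and stabilin-2. The genotypes belong to the plasma donors; the labels give none, and no age or sex, for the marrow donors. Whether the replicates come from different cultures or plasma pools is not given either, so each p-value speaks only to array-to-array spread, and that may be technical. AS1 and AS2 plasma both lack apolipoprotein E too, so ApoE plasma is their control and WT plasma is the control of ApoE plasma.

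Neutrophils form their granules in stages. At the promyelocyte stage the cell makes azurophil (primary) granules, filled with myeloperoxidase, which turns hydrogen peroxide and chloride into hypochlorous acid, and with the serine proteases elastase, proteinase 3 and cathepsin G. The genes for these proteins are switched off again as the cell matures and turns to specific and gelatinase granules, while macrophages keep little or no expression of them. Ms4a3, a protein with several membrane spans, marks granulocyte-monocyte progenitors and their early progeny. C/EBP epsilon, encoded by Cebpe, drives the step from promyelocytes to later granule stages, and Gfi1 is a zinc-finger repressor that neutrophil development requires.

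Values are log2 RMA expression values, in which 1 unit is a doubling of the measured signal. The median array value was 4.37, and arrays of the same plasma group correlated at r = 0.990 to 0.998 across rows. In ApoE replicate 1 the number of distinct values was 24162, while the 17 others had 7087 each, so results with the ApoE arrays were also computed without it. Macrophage markers were high in all groups: the M-CSF receptor gene Csf1r averaged 12.61 with WT, 12.22 with ApoE, 12.57 with AS1 and 12.40 with AS2 plasma, and Adgre1, which encodes a surface receptor used to define mouse macrophages, averaged 12.56, 12.08, 12.54 and 12.23. The labelled cell type thus carried its defining markers. Mpo, Elane and Prtn3 averaged 7.65, 7.19 and 7.34 with WT plasma, also above the median array value. A change was called at a Benjamini-Hochberg adjusted p under 0.05 over all 24705 rows in 1 limma model of the 4 groups, and "adjusted p" has this meaning throughout.

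Promoter sequence was available for 6 of the 7 genes in RefSeq's table on the mouse build GRCm38.p6 (none for Cebpe). Stretches of 110 bases upstream of 5 genes are shown because these 5 genes had the largest differences between AS1 and ApoE plasma, and because they hold the same short ETS-type core, the letters bound by the myeloid factor PU.1 and its relatives. Capitals mark 3 elements on the strand of the gene, with all sequences written 5′ to 3′. The first is the ETS core GGAAGT. The second is AACGG, a core of sites for the factor Myb. The third is TATAA, the heart of a TATA box. Elane (chr10:79886202-79886311, plus strand) and Prtn3 (chr10:79879557-79879666, plus strand) are shown from base -110 to base -1 before the gene start, and so is Ms4a3 (chr19:11640852-11640961, minus strand). For Mpo (chr11:87793534-87793643, plus strand) and Ctsg (chr14:56102715-56102824, minus strand) the bases run from -250 to -141, where the core lies.
Elane: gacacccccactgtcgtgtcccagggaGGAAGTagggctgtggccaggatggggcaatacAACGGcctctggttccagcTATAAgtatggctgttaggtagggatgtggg
Prtn3: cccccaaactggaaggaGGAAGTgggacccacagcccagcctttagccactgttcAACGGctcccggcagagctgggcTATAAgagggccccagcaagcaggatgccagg
Mpo: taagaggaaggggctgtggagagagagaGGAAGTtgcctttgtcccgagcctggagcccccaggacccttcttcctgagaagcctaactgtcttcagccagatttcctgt
Ctsg: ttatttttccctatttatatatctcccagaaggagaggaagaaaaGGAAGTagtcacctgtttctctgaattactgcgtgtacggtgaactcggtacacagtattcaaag
Ms4a3: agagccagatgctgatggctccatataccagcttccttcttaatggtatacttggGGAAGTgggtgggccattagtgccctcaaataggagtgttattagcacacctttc

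The neighbouring genes Elane and Prtn3 hold the same 3 elements in the same order. In Elane, GGAAGT begins at base -83, AACGG at -50 and TATAA at -31. In Prtn3 they begin at -93, -55 and -32. Over the 250 bases searched on both strands, 19.7% of 32851 RefSeq mouse promoters held GGAAGT, 14.5% held AACGG and 22.8% held TATAA. On the strand of the gene alone these shares were 10.7%, 7.74% and 16.0%, and 26 promoters, or 0.0791%, held all 3. The ETS core began at -222 in Mpo, -205 in Ctsg and -55 in Ms4a3, and Gfi1 had no match to it in its searched window. The longer PU.1 site GAGGAAGT, which overlaps the ETS core, was matched in Elane at -85, Prtn3 at -95 and Mpo at -224, against 2.44% of all promoters. The C/EBP motif TTNNGNAA, held by 36.8% of promoters, began at -59 in Ms4a3, overlapping its ETS core, and at -143 on the other strand of Gfi1. The RUNX core TGTGGT, held by 4614 of the 32851 promoters, was matched in Ctsg at -79 on the other strand. The motifs were chosen with these sequences in view; a match is a run of letters and not a measured binding site.

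**Figure D1:**
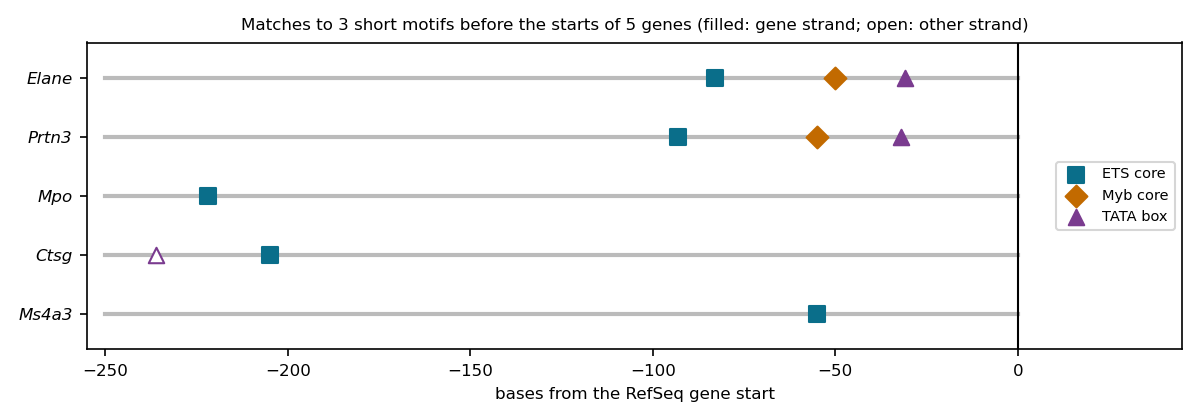
Positions of matches to 3 short motifs in the promoter windows of 5 genes, as bases from the RefSeq gene start, with filled symbols for the strand of the gene and open symbols for the other strand. Elane and Prtn3 carry the ETS core, the Myb core and the TATA box in the same order, with first bases from -93 to -31.

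AS1 plasma gave the highest level of every one of the 7 genes. Measured against ApoE plasma, the 4 granule enzymes rose by 2.53-fold to 4.83-fold, Ms4a3 by 2.53-fold, Cebpe by 1.41-fold and Gfi1 by 1.24-fold. All 7 were called higher in this comparison, where 7.74% of all rows were called higher and 8.8% lower. The lowest AS1 array lay above the highest of the 15 other arrays for all 7 genes, which held for 2.34% of all rows. Without the WT and AS2 arrays, all AS1 arrays above all ApoE arrays held for 9.04% of rows. The median difference of the 7 genes was 1.34 log2 units, and that of all rows 0.0019. In bulk RNA, more cells of a type and more RNA of these genes per cell cannot be told apart.

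Prtn3, the protease that is also the autoantigen of a form of vasculitis, had the largest change. With AS1 plasma its log2 values were 9.87, 9.24 and 9.75, and with ApoE plasma 6.56, 7.15, 7.51, 7.34 and 8.18. The lowest AS1 array thus lay 1.06 above the highest of all other arrays. The difference was 2.27 ± 0.27 (SE) log2 units, or 4.83-fold, with adjusted p = 1.95e-05.

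Elane encodes neutrophil elastase, and its mutations cause cyclic and severe congenital neutropenia. Its values were 9.61, 9.09 and 9.44 with AS1 plasma against 7.08, 7.24, 7.47, 7.75 and 8.29 with ApoE plasma. The groups did not overlap, and the gap to the nearest other array was 0.80. The difference was 1.81 ± 0.20 (SE), or 3.52-fold (adjusted p = 9.71e-06).

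Mpo, the heme enzyme of the azurophil granule, read 10.39, 10.02 and 10.37 with AS1 plasma and 7.88, 8.29, 8.26, 8.73 and 9.18 with ApoE plasma. Again all 3 AS1 arrays were above all others, by 0.84. The AS1 excess was 1.79 ± 0.20 (SE), or 3.46-fold (adjusted p = 8.55e-06), over ApoE plasma and 6.08-fold over WT plasma, the largest ratio of the 7 genes in any comparison with WT.

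Ctsg, which encodes a chymotrypsin-like protease, was at 7.36, 6.93 and 6.76 with AS1 plasma against 5.49, 5.86, 5.50, 5.69 and 5.87 with ApoE plasma. No array of another group came within 0.89 of the lowest AS1 array. Its difference of 1.34 ± 0.15 (SE) had adjusted p = 8.08e-06.

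Ms4a3, the progenitor marker, had values of 6.60, 6.90 and 6.37 with AS1 plasma and 4.88, 5.53, 5.15, 5.39 and 5.48 with ApoE plasma. AS1 replicate 2, which was the lowest AS1 array for Elane, Mpo and Prtn3, was the highest for Ms4a3. The difference was 1.34 ± 0.15 (SE), with adjusted p = 1.19e-05.

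The measured changes of the regulators were smaller. Cebpe read 5.50, 5.76 and 5.27 with AS1 plasma and 4.95, 4.96, 4.91, 5.10 and 5.17 with ApoE plasma, a difference of 0.49 ± 0.099 (SE) with adjusted p = 0.00178. Gfi1 read 5.23, 4.89 and 5.20 against 4.88, 4.87, 4.74, 4.79 and 4.74, a difference of 0.30 ± 0.072 (SE) with adjusted p = 0.00617. AS1 replicate 2 lay only 0.016 above the highest other array for Gfi1, and 0.10 separated the lowest AS1 array from the rest for Cebpe. Without AS1 replicate 1 the Gfi1 difference was 0.24 and no longer called (adjusted p = 0.0572).

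**Figure D2:**
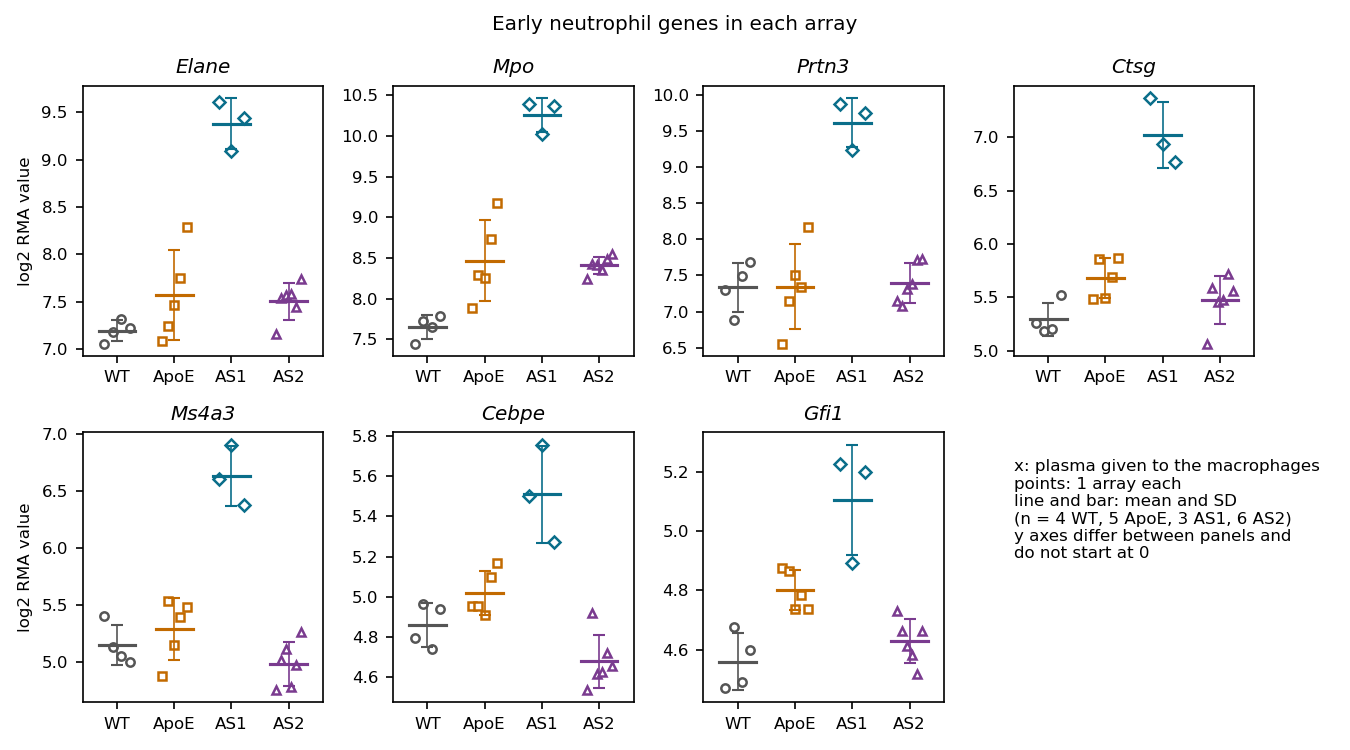
Log2 RMA value of each of the 7 genes in each array, with 1 panel per gene, 1 point per array, and the group mean ± SD beside the points. The 3 AS1 arrays lie above all 15 other arrays in each panel, by 1.06 for Prtn3 and by 0.016 for Gfi1.

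The 7 genes were also compared with each other for the size of their change, with an exact two-sided permutation test over the arrays of the difference of each pair of genes. Of 21 pairs in AS1 against ApoE, 11 had the smallest p that 3 against 5 arrays allow (0.0357). In 10 of these an enzyme gene or Ms4a3 moved more than Cebpe or Gfi1, and in 1 Prtn3 moved more than its neighbour Elane, by 0.46. None of 63 pairs over the 3 main comparisons passed after adjustment (smallest adjusted p = 0.141). With 3 against 5 arrays a pair could pass only if many other pairs had small p-values too, so missing the threshold says little. Signal from dim probe sets is compressed in arrays, so such sizes need not be on a single scale.

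Against WT plasma, AS1 plasma gave the same calls with larger differences. All 7 genes were higher, where 4.84% of all rows were called higher and 4.64% lower, by 0.54 (Gfi1) to 2.60 (Mpo) log2 units. Prtn3 differed by 2.28, Elane by 2.19, Ctsg by 1.73, Ms4a3 by 1.48 and Cebpe by 0.65.

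ApoE plasma raised Mpo and Gfi1 over WT plasma. These were 2 of 7 genes called higher and 0 lower, where 8.54% of all rows were called higher and 8.36% lower, and the median difference of the 7 genes was 0.24. Mpo read 7.45, 7.72, 7.66 and 7.79 with WT plasma, and each of the 5 ApoE arrays was above the highest of them, which held for 7.4% of all rows. Its difference was 0.81 ± 0.18 (SE), or 1.76-fold (adjusted p = 0.00364). Gfi1 read 4.47, 4.68, 4.49 and 4.60 with WT plasma, and the ApoE arrays again lay above all 4. The Gfi1 difference was 0.24 ± 0.066 (SE) with adjusted p = 0.0168, and it was not called without WT replicate 1 (0.21, adjusted p = 0.0636) or without WT replicate 3 (0.22, adjusted p = 0.0593).

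The proteases did not follow Mpo to the threshold. Elane was at 7.06, 7.18, 7.31 and 7.22 with WT plasma, so that ApoE replicates 1 and 2 overlapped the WT arrays and ApoE replicate 5, at 8.29, stood farthest above them. Its difference was 0.37 ± 0.19 (SE), with a 95% interval from -0.021 to 0.77 and adjusted p = 0.226. Prtn3 read 7.30, 6.88, 7.49 and 7.68 with WT plasma and differed by 0.01 ± 0.25 (SE), with a 95% interval from -0.52 to 0.54 (adjusted p = 0.992).

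Ctsg fell just short of a call. Its WT arrays were at 5.26, 5.18, 5.21 and 5.52, and the ApoE arrays were 0.39 ± 0.13 (SE) higher on average (adjusted p = 0.0588). It was called when ApoE replicate 1 was left out (adjusted p = 0.048), when ApoE replicate 3 was (0.0467) and when WT replicate 4 was (0.0382). For Ms4a3 the WT arrays read 5.40, 5.13, 5.05 and 5.00 and the difference was 0.14 (adjusted p = 0.641), and for Cebpe they read 4.80, 4.96, 4.74 and 4.94 and the difference was 0.16 (adjusted p = 0.323).

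In pairs of genes, Mpo moved more than Elane between WT and ApoE plasma by 0.44, with no overlap between arrays in the difference of the 2 genes and an exact permutation p of 0.0159, the smallest that 4 against 5 arrays allow. Of 21 pairs, 5 were under 0.05 before adjustment, and 4 of these involved Mpo; after adjustment each stood at 0.141.

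AS2 plasma did not share the rise seen with AS1 plasma. Against AS1 plasma, all 7 genes were lower, where 10.6% of all rows were called lower and 11.5% higher, by 2.22 (Prtn3), 1.88 (Elane), 1.85 (Mpo), 1.65 (Ms4a3), 1.54 (Ctsg), 0.83 (Cebpe) and 0.48 (Gfi1) log2 units. This is the direct comparison of both double-knockout plasmas. Its differences contain no ApoE or WT array, but those arrays enter the shared estimate of spread behind its calls. In a fit of these 2 groups alone, all 7 genes were called lower too.

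Against ApoE plasma, AS2 plasma lowered Cebpe alone of the 7. That is 0 called higher and 1 lower, a count near the share of all rows. There, 7.59% of all rows were called higher and 8.02% lower. Cebpe had a lowest, median and highest value of 4.54, 4.64 and 4.92 over the 6 AS2 arrays. Its difference was -0.34 ± 0.082 (SE) with adjusted p = 0.00727, and the highest AS2 array overlapped the lowest ApoE array.

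Gfi1 with AS2 plasma was at 4.52, 4.64 and 4.73 (lowest, median, highest). No AS2 array reached any ApoE array, which held for 5.48% of all rows, yet the difference of -0.17 ± 0.060 (SE) missed the threshold (adjusted p = 0.065). It was called in a fit of these 2 groups alone (adjusted p = 0.0236) and without AS2 replicate 1 (-0.19, adjusted p = 0.0472). Ms4a3 spanned 4.75, 4.99 and 5.26 with AS2 plasma and differed by -0.31 (adjusted p = 0.137), which passed the threshold without ApoE replicate 1 (-0.41, adjusted p = 0.0275).

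The granule enzymes lay close to their ApoE levels. With AS2 plasma Elane spanned 7.15, 7.55 and 7.73 as lowest, median and highest value, Mpo 8.24, 8.42 and 8.55, Prtn3 7.08, 7.35 and 7.73, and Ctsg 5.07, 5.52 and 5.72. In all 4 genes these values overlapped those with ApoE plasma. The 95% intervals of the difference from ApoE plasma were -0.42 to 0.29 for Elane, -0.40 to 0.29 for Mpo, -0.43 to 0.53 for Prtn3 and -0.46 to 0.053 for Ctsg.

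Between AS2 and WT plasma, Mpo was the only one of the 7 genes called, a count near the share of all rows. There, 8.65% of all rows were called higher and 9.2% lower. Mpo was higher by 0.76 ± 0.17 (SE) or 1.69-fold (adjusted p = 0.00433). Its lowest AS2 array, at 8.24, was above the highest WT array, at 7.79, and arrays parted in that way for 8.41% of all rows. In order of group mean, Elane, Mpo, Ctsg and Gfi1 ran AS1, ApoE, AS2, WT, while Prtn3 ran AS1, AS2, ApoE, WT, and Ms4a3 and Cebpe ran AS1, ApoE, WT, AS2. Below AS1, the neighbours in each order did not differ past the threshold, except that Mpo with AS2 plasma was above Mpo with WT plasma.

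**Figure D3:**
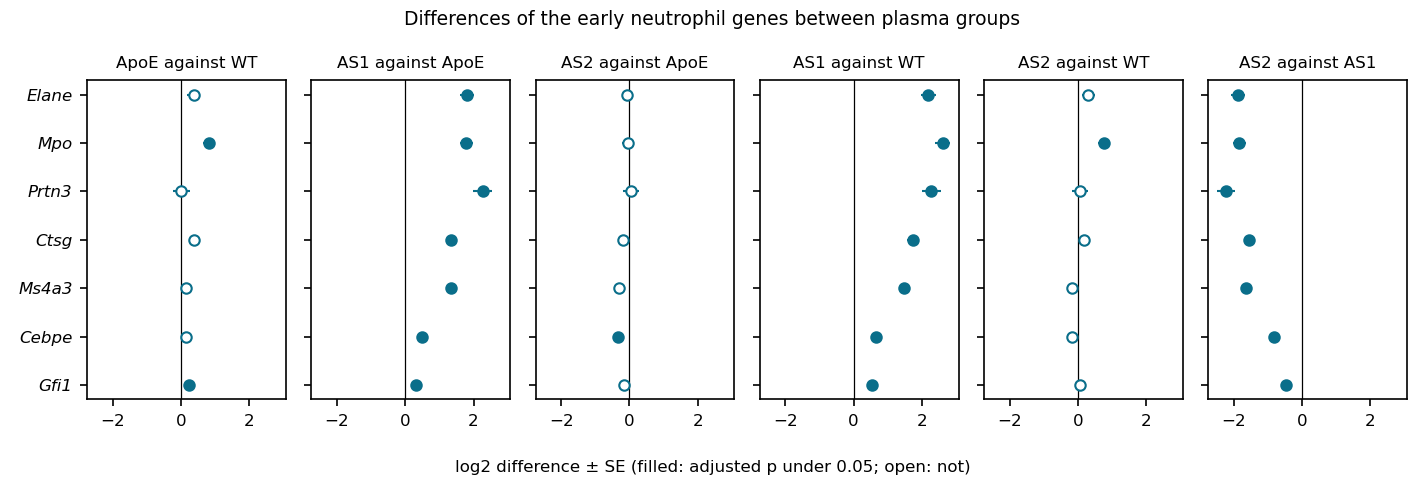
Log2 difference ± SE of each of the 7 genes in the comparisons between plasma groups, with filled points where the adjusted p was under 0.05. Points are filled for all 7 genes in the comparisons that involve AS1, and for Mpo and Gfi1, Cebpe, or Mpo alone in the comparisons of ApoE with WT, AS2 with ApoE and AS2 with WT.

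The spread within groups differed by gene. For Prtn3, Mpo and Elane the SD was largest with ApoE plasma, at 0.59, 0.50 and 0.48, against 0.34, 0.21 and 0.27 with AS1 and 0.28, 0.11 and 0.20 with AS2 plasma. For Ctsg, Cebpe and Gfi1 it was largest with AS1 plasma, at 0.31, 0.24 and 0.19, against 0.19, 0.11 and 0.067 with ApoE plasma. ApoE replicate 5 was the highest ApoE array for 5 of the 7 genes and ApoE replicate 1 the lowest for 5 of the 7. Over all 18 arrays the pairs of genes correlated at r = 0.69 to 0.97, and over the 15 arrays without AS1 at -0.37 to 0.88. Elane and Mpo kept an r of 0.88 without the AS1 arrays and Elane and Prtn3 one of 0.69, while Prtn3 and Gfi1 went from 0.69 to -0.37. These correlations are descriptions; the arrays share their plasma group.

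Other proteins of the azurophil granule and the promyelocyte were split in each comparison. Of 17 measured genes on this list, 10 rose, 1 fell and 6 were not called with AS1 against ApoE plasma, with a median of 0.36. Hp, haptoglobin, which binds free haemoglobin, rose by 1.92 (adjusted p = 1.69e-05), and Plac8, a small cysteine-rich protein of myeloid cells, rose by 1.33 (adjusted p = 1.8e-05). Calr, the endoplasmic reticulum chaperone calreticulin that binds new myeloperoxidase, was the gene that fell, by 0.48 (adjusted p = 1.02e-05). With AS2 against ApoE plasma 3 rose and 4 fell. Alas1, the first enzyme of heme synthesis, was among the 3 (0.42, adjusted p = 1.11e-06), and Hp among the 4 (-0.61, adjusted p = 0.0336).

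The genes that mature, hold or inhibit the proteases were split. Ctsc, cathepsin C, which trims elastase, proteinase 3 and cathepsin G to their active forms, fell by 0.67 with ApoE against WT plasma (adjusted p = 3.75e-06) and was 0.51 higher with AS1 than with ApoE plasma (adjusted p = 0.00021). Srgn, the proteoglycan serglycin that packs granule proteins, rose by 0.57 with AS1 against ApoE plasma (adjusted p = 2.82e-05). Serpinb1a, an intracellular inhibitor of these proteases, rose 2.01-fold with AS1 plasma (adjusted p = 0.000334) and fell by 0.75 on the log2 scale with AS2 plasma (adjusted p = 0.000715), both against ApoE plasma. Of the 10 measured genes on the list, 3 rose, 1 fell and 6 were not called in AS1 against ApoE, with a median of 0.01. Serpinb9, an inhibitor of granzyme B, was among those not called (-0.20, adjusted p = 0.199).

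Among 20 transcription factors of granulocyte development beside Cebpe and Gfi1, 9 rose, 2 fell and 9 were not called with AS1 against ApoE plasma. With AS1 against WT plasma only 3 rose, 1 fell and 16 were not called. Myb, which acts in progenitors and whose core stands in the Elane and Prtn3 promoters above, rose by 1.35 ± 0.17 (SE, adjusted p = 2.31e-05). Runx1 and Etv6, regulators of blood stem and progenitor cells, rose by 0.64 and 0.59 (adjusted p = 1.07e-05 and 2.29e-05). Spi1, which encodes PU.1 and is named here for its motif after its values were seen, rose by 0.57 (adjusted p = 0.00167). With WT, ApoE and AS1 plasma, means were 10.07, 9.45 and 10.01 for Spi1 and 9.81, 9.40 and 10.04 for Runx1. Those of Etv6 were 9.55, 9.08 and 9.67, and those of Myb 5.28, 5.62 and 6.97. Any part of Myb or PU.1 in the changes of the 7 genes was not tested. Cebpa, the factor of granulocyte-monocyte commitment, was 0.35 higher without a call (adjusted p = 0.0547).

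Factor levels with ApoE and AS2 plasma took other directions. With ApoE against WT plasma 2 of the 20 rose and 7 fell, and with AS2 against ApoE plasma 3 rose and 4 fell. Cebpa fell by 0.89 with ApoE plasma (adjusted p = 1.03e-05), Spi1 by 0.62 (adjusted p = 0.000304) and Runx1 by 0.41 (adjusted p = 0.000202), in the comparison in which Mpo and Gfi1 rose. With AS2 plasma Egr2, a macrophage-lineage zinc-finger factor, rose by 1.47 (adjusted p = 4.42e-08) and Myb fell by 0.60 (adjusted p = 0.00445).

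Late granule and mature neutrophil genes also rose with AS1 plasma. Of 23 measured, 21 rose, 0 fell and 2 were not called against ApoE plasma, with a median of 1.14. Csf3r, the receptor for G-CSF, rose by 0.95 ± 0.11 (SE, adjusted p = 1.96e-05), Stfa2l1, a stefin, by 2.38 (adjusted p = 9.05e-06), and the cytokine gene Il1b by 2.07 (adjusted p = 2.28e-06). Il1b averaged 6.75 with WT, 5.15 with ApoE and 7.22 with AS1 plasma. Against WT plasma 18 of the 23 rose with AS1 plasma, 0 fell and 5 were not called.

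With AS2 plasma the late genes fell where most of the 7 early genes were not called. Against ApoE plasma 1 of 23 rose and 14 fell, with a median of -0.76 against -0.17 for the 7 early genes. Csf3r fell by 1.08 ± 0.095 (SE, adjusted p = 2.31e-07) to 8.06 ± 0.063 (SD, n = 6), and Ltb4r1, a leukotriene B4 receptor, by 0.16 (adjusted p = 0.00665). The gene that rose was Cybb, the phagocyte oxidase subunit that macrophages express too. Mean log2 values of the late list ran from 6.07 to 6.58 over the AS2 arrays and from 6.63 to 7.52 over the ApoE arrays, without overlap. Those of the 7 early genes ran from 5.95 to 6.31 and from 5.96 to 6.70, and overlapped. The difference between both lists was not tested, and the AS1 and AS2 comparisons share the ApoE arrays.

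**Figure D4:**
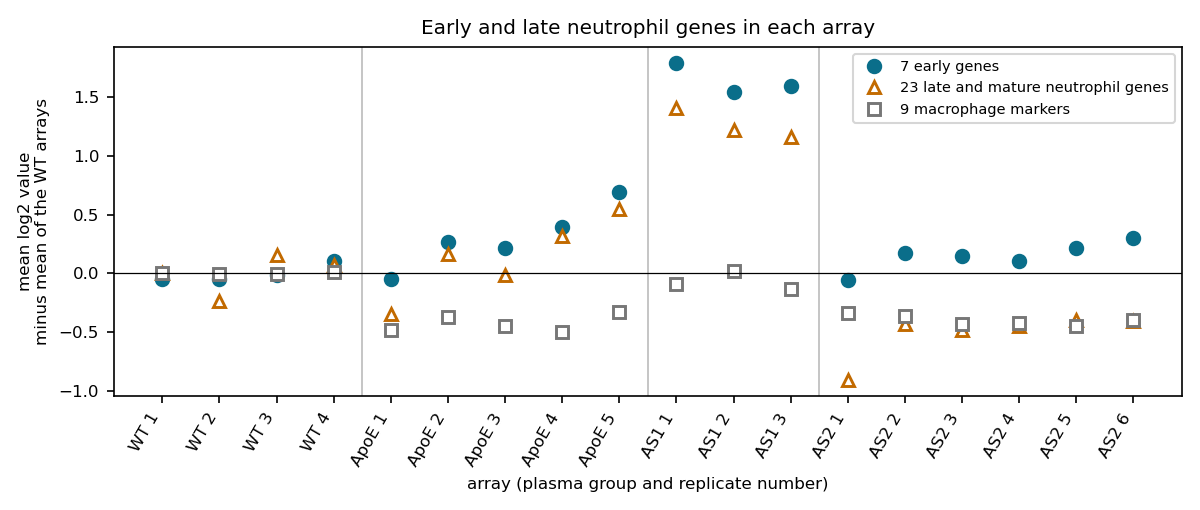
Mean log2 values of 7 early neutrophil genes, 23 late neutrophil genes and 9 macrophage markers in each array. The mean of the WT arrays is subtracted, with 1 symbol per list. Both neutrophil lists are highest in the AS1 arrays. In the AS2 arrays the late list lies below all ApoE arrays while the early list overlaps them.

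Markers of other cells that marrow cultures can hold moved with the early genes in part. Of 16 progenitor and stem cell markers, 4 rose, 1 fell and 11 were not called with AS1 against ApoE plasma, and their mean log2 values ran from 5.47 to 5.54 over AS1 and from 5.29 to 5.43 over ApoE arrays. The 4 included Myb and Adgrg1, an adhesion receptor of stem cells (0.68, adjusted p = 0.000778). With AS2 against ApoE plasma 9 of 16 fell and 1 rose, the last being Procr, the endothelial protein C receptor (0.59, adjusted p = 5.55e-05).

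Of 14 markers of mast cells, basophils and eosinophils, 7 rose and 7 were not called with AS1 against ApoE plasma. Prg2, eosinophil major basic protein, rose by 1.89 (adjusted p = 2.15e-05), Ccr3, the eotaxin receptor, by 0.88 and Mcpt8, a basophil protease, by 0.88 (both adjusted p = 0.000202). Ccr3 averaged 7.52 with WT, 6.38 with ApoE and 7.26 with AS1 plasma, so its AS1 mean lay below its WT mean. In the same order Prg2 averaged 6.29, 5.62 and 7.50, and Mcpt8 4.03, 4.30 and 5.18. The mean log2 values of these markers ran from 4.72 to 5.00 over AS1 arrays and from 4.15 to 4.49 over all others. The mast cell markers among them were split. Cpa3, the gene of mast cell carboxypeptidase, averaged 4.29 with WT, 4.81 with ApoE, 6.28 with AS1 and 4.30 with AS2 plasma, and it rose by 1.47 ± 0.26 (SE) with AS1 against ApoE plasma (adjusted p = 0.000705). Group means of Fcer1a (3.50 to 3.52), Mcpt4 (3.42 to 3.47) and Cma1 (3.55 to 3.62) lay under the 10th percentile of row means, 3.63, in every group. Those of Tpsb2, a tryptase gene (3.96 to 4.06), and Ms4a2 (3.73 to 3.88) lay above it, and neither was called in AS1 against ApoE. These 6 genes were chosen after their values were seen.

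Monocyte and macrophage markers changed in several comparisons. Of 11 monocyte markers, 6 rose and 2 fell with AS1 against ApoE plasma, and 4 rose and 3 fell with AS2 against ApoE plasma. Ccr2, the receptor that draws monocytes into tissue, rose by 1.56 with AS1 (adjusted p = 1.22e-06) and by 1.99 with AS2 plasma (adjusted p = 1.31e-09), both against ApoE plasma. It averaged 8.68 with WT, 6.83 with ApoE, 8.40 with AS1 and 8.83 with AS2 plasma. Other monocyte markers took other courses. In the same order, F13a1 averaged 11.10, 10.10, 10.71 and 9.11, and S100a4 10.05, 9.72, 9.81 and 11.30. Of 9 macrophage markers 6 rose and 0 fell with AS1 against ApoE plasma, whereas 0 rose and 1 fell with AS1 against WT plasma. Itgam, an integrin chain of myeloid cells, rose by 0.91 over ApoE plasma (adjusted p = 9.53e-06). With ApoE against WT plasma 1 macrophage marker rose and 6 fell, and with AS2 against ApoE plasma 3 rose and 3 fell. Between AS2 and WT plasma 0 rose and 6 fell. In the order WT, ApoE, AS1 and AS2, Mertk averaged 10.67, 10.74, 10.70 and 10.04. Aif1 averaged 8.15, 6.73, 7.87 and 6.70, and Itgam 11.72, 10.88, 11.79 and 11.83. Of 6 erythroid markers, Epor alone was called (0.45, adjusted p = 0.00505). The part of other cell types in the change of the early genes was not tested.

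Cell cycle genes changed mainly in other comparisons. All 19 measured rose with ApoE against WT plasma (median 1.47) and all 19 rose with AS2 against ApoE plasma (median 0.95), while 6 rose, 1 fell and 12 were not called with AS1 against ApoE plasma. Mki67, the gene of the Ki-67 antigen, rose by 2.13 with ApoE plasma (adjusted p = 4.99e-12), and was a further 0.39 higher with AS1 (adjusted p = 0.00151) and 0.50 higher with AS2 than with ApoE plasma (adjusted p = 1.76e-05).

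**Figure D5:**
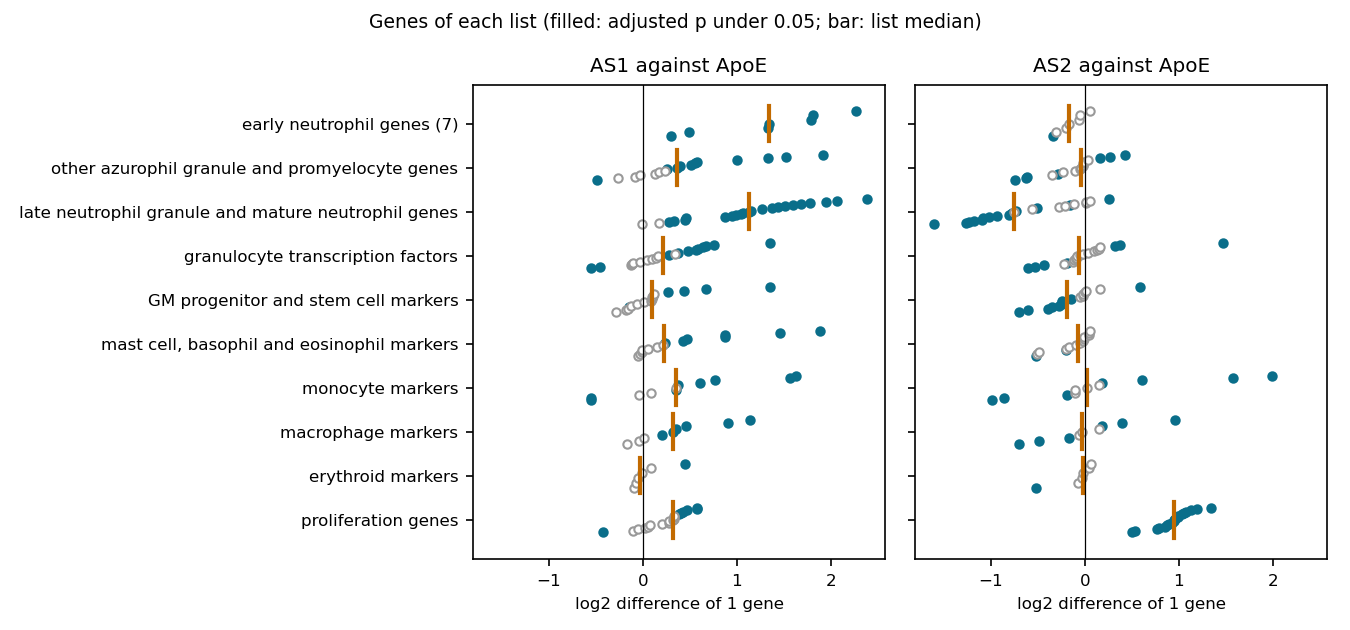
Log2 differences of single genes by list, with AS1 against ApoE plasma and with AS2 against ApoE plasma. Each gene is 1 point, filled where the adjusted p was under 0.05, and a bar marks the median of the list. The lists of protease processing and inhibitor genes and of neutropenia and granule sorting genes are not drawn. The 7 early neutrophil genes (median 1.34) and the 23 late ones (1.14) lie to the right with AS1 plasma, and with AS2 plasma their medians are -0.17 and -0.76.

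Genes beside the 7 on their chromosomes were mostly not called. Of 36 other genes among the 3 nearest measured on each side, 5 rose, 1 fell and 30 were not called with AS1 against ApoE plasma, with a median of 0.03. Around Prtn3 and Elane, which stand next to each other, Plppr3 rose by 0.24 (adjusted p = 0.0387), Med16 by 0.25 (0.0414) and R3hdm4 by 0.54 (3.82e-05). Lpo, the lactoperoxidase gene next to Mpo, differed by 0.02 (adjusted p = 0.927), and Epx, eosinophil peroxidase and the third gene on that side, rose by 0.43 (adjusted p = 5.15e-05). Among measured genes Ctsg lies between Mcpt8, given above, and Gzme, a granzyme gene, which differed by -0.0019 (adjusted p = 0.994). Ms4a2, the neighbour of Ms4a3 and its family member, differed by 0.05 (adjusted p = 0.557). Rpap2 near Gfi1 was the gene that fell, by 0.35 (adjusted p = 0.0332).

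The genes whose profile was most like the mean standardised profile of the 7 over the 18 arrays were Cxcr2 (r = 0.965), the chemokine receptor of mature neutrophils, Rdh12 (0.964), Hp (0.963), Plac8 (0.960) and Ighj1 (0.960). They were followed by Nbeal2, Mcpt8, Zyx, Dennd3 and Sh2d3c, at r of 0.954 to 0.948. Over the 15 arrays without AS1, Mcpt8 (0.905) and Cxcr2 (0.901) remained high, and Zyx (0.571) and Nbeal2 (0.562) did not. With AS2 against ApoE plasma, Cxcr2 fell by 0.79 (adjusted p = 0.0358) while Mcpt8 differed by -0.20 (adjusted p = 0.331). Likeness over arrays of 4 groups is a description.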

How the data were processed

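Expression was measured on 18 Affymetrix arrays of mouse macrophages in 4 plasma groups. The authors deposited 1 table of log2 expression values, made by RMA (background correction, equal distributions across arrays, probe summary) per the submitters' processing notes; version and probe set definition: not given in the sources used here. Equal distributions hide changes of total RNA. Of 25428 rows, 24705 had 1 gene symbol in the platform annotation and 723 were unnamed. The number of arrays limits the precision.

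On the deposited log2 values, limma 3.58.1 (R 4.3.3) fitted 4 group means to the 24705 rows, with 14 residual degrees of freedom, two-sided eBayes tests, Benjamini-Hochberg adjustment over all rows and a threshold of 0.05. A fold is 2 to the power of the log2 difference. Scripts were tested on simulated data.

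The 7 members and 11 gene lists (154 of 167 genes with a row) were chosen with earlier results of these data known. All members are described. From each list, the rule picked the 4 genes with the smallest p in the 3 main comparisons. Of these, Cd48, Slc4a1, Klf1, Ccnb2 and Kif11 are not described. The rule then named the called genes among 3 neighbours on each side and the 10 genes most like the members. Others are marked where they appear or belong to a count, except Adgre1, Lpo and Gzme, which were named outside the rule. Alternatives were the unnamed rows added, rows below the 40th percentile of mean level dropped, arrays quantile-normalized again or centred on their medians, limma with array weights or with a trended and robust variance, only the 2 compared groups fitted, a replicate block, and each array left out. Leaving out ApoE replicates 2 and 5 together was added after seeing the data. The labels name no batch.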

Additional observations from a re-analysis of the deposited data

Results flagged for a closer look

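Of 147 groups of 4 to 6 arrays tested for a sample far from the others, 8 held one, and chance gives about 1 in 20; none of the 21 groups of the 7 early neutrophil genes did. In AS2 replicate 1, Il1b was lowest at 4.10 (4.65 to 4.83 in the other AS2 arrays) and Srgn highest at 12.08 (11.96 to 11.99). In ApoE replicate 1, Serpinb9 was highest at 6.70 (6.55 to 6.58 in the other ApoE arrays). ApoE replicate 2 had the lowest Car1, at 3.61 (3.74 to 3.78), and the highest Tpx2, at 7.43 (7.12 to 7.20). ApoE replicate 5, the highest ApoE array for most early genes, had the highest Aif1, at 7.03 (6.62 to 6.71). With WT plasma, Fcgr1 was lowest in replicate 2 at 10.67 (10.79 to 10.80), and Car1 lowest in replicate 4 at 3.74 (3.78 to 3.79).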

How the results depend on the processing

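The 7 calls in AS1 against WT and in AS2 against AS1 held under all settings run, and 6 or 7 held in AS1 against ApoE. Of 777 values of single genes under these settings, 741 kept their direction and side of the threshold, 3 lost a call, 9 gained one and 24 changed sign, none of the last being called. With single arrays left out, 1 to 3 genes were called in ApoE against WT, and 1 to 2 in AS2 against ApoE. In a fit of the 2 compared groups alone, 2 were called in AS2 against ApoE and 2 in AS2 against WT (Elane joined at 0.31, adjusted p = 0.0434). Ctsg in ApoE against WT was called in such a fit (adjusted p = 0.0366) and with dim rows filtered out (0.0322). Differences of Prtn3 that changed sign were -0.014 (AS2 against ApoE) and -0.0070 (AS2 against WT) with array weights. With the replicate number as a block they were -0.14 (ApoE against WT), -0.019 (AS2 against ApoE) and -0.16 (AS2 against WT); the block left all counts of called members as they were, at 2, 7 and 1 in the main comparisons. Over all rows, deviations from the group means correlated at r from -0.21 to 0.13 in same-numbered arrays of different groups (22 pairs). In differently numbered arrays r ran from -0.28 to 0.38 (97 pairs). These values cannot tell whether same-numbered arrays share an origin, which the labels do not give. Without ApoE replicates 2 and 5, differences in ApoE against WT were -0.20 for Prtn3 and -0.0056 for Ms4a3, and in AS2 against ApoE 0.071 for Elane and 0.12 for Mpo. With single arrays left out, Prtn3 ranged from -0.20 to 0.21 in ApoE against WT, -0.15 to 0.26 in AS2 against ApoE and -0.094 to 0.17 in AS2 against WT, Elane from -0.18 to 0.12 and Mpo from -0.20 to 0.12 in AS2 against ApoE. The cause of these changes was not tested. Row means of Cebpe and Gfi1 lay at the 60.1 and 57.3 percentile of all rows, and signal over background limits what dim probe sets can show.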

Other observations

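Genes whose loss causes severe neutropenia or faulty granule sorting in people or mice showed no common direction. Of 19 measured, 5 rose and 2 fell with ApoE against WT plasma, 4 rose and 5 fell with AS1 against ApoE plasma, and 1 rose and 5 fell with AS2 against ApoE plasma. Lyst, the lysosomal trafficking regulator lost in Chediak-Higashi syndrome, in which azurophil granules fuse into giant bodies, rose by 1.11 with ApoE plasma (adjusted p = 2.73e-09) and fell by 0.75 with AS2 against ApoE plasma (adjusted p = 6.19e-08). With AS1 against ApoE plasma it differed by -0.16 (adjusted p = 0.167). Slc37a4, the glucose-6-phosphate transporter, fell by 0.42 with AS1 against ApoE plasma (adjusted p = 1.39e-06). Dnajc21, a ribosome biogenesis factor, rose by 0.87 with ApoE plasma (adjusted p = 8.63e-06) and fell by 0.68 with AS1 and by 0.65 with AS2 against ApoE plasma (adjusted p = 0.000335 and 5.88e-05).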
